A study of Mus musculus with 37 samples.

Results

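Irf1, Irf2, Irf3 and Irf5 are 4 genes of the interferon regulatory factor family, and they were described here across 5 types of mouse myeloid cell treated with IL-10, with LPS or with both. Members were chosen by gene name: every transcript whose name in the deposited table was one of these 4 symbols was taken, and the transcripts of a gene were added to give a gene sum. This gave 19 transcripts of 16993 named transcripts in the table, and 4 genes of 6509. Irf1 had 7 of these transcripts, Irf2 had 1, Irf3 had 7 and Irf5 had 4. The other members of the family were not analysed here.

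The interferon regulatory factors are transcription factors that share a DNA-binding domain and bind interferon-stimulated response elements, which are short repeats of GAAA. IRF3 and IRF5 are present as latent proteins and are switched on by phosphorylation below Toll-like receptors, so their mRNA level need not follow their activity, whereas IRF1 is controlled to a large extent by transcription of its own gene below NF-κB and the interferon receptors. IRF2 binds the same elements as IRF1 and is best known as its antagonist, and IRF5 drives inflammatory cytokine genes in macrophages and dendritic cells.

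RNA was sequenced from cells of C57Bl6cJ mice. Peritoneal macrophages, dendritic cells of the spleen (sDCs) and neutrophils of the bone marrow were taken as primary cells, whereas the mast cells and the eosinophils were cultured from marrow precursors. Each group had 2 biological replicates, and 36 libraries in 18 groups were used. The untreated cells received neither agent, IL-10 cells received 100 ng/ml IL-10 for 4 h, LPS cells received 100 ng/ml LPS for 4 h, and the combined group received IL-10 for 4 h before 4 h of LPS. Eosinophils were sequenced untreated and with LPS. No group carried a transgene or deletion. Per the study's methods the macrophages were elicited with thioglycollate and selected by adherence, the neutrophils were pooled over mice and kept overnight in GM-CSF before treatment, and the sDCs were enriched with magnetic beads. In the treatment scheme the LPS groups were harvested 4 h later than the groups without LPS, so LPS and the longer culture cannot be told apart. Replicate 1 of the untreated and IL-10 macrophages came from earlier libraries that were analysed again. In macrophages LPS and the origin of the libraries therefore cannot be fully told apart. A different preparation kit served for every sDC library and for the second mast cell replicates, so for sDCs the cell type and the kit cannot be told apart.

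Each transcript had 1 value in each group, which is the replicate mean that the authors deposited, in GC-normalized tag counts. No replicate values were used, so no SD, no interval and no p-value stands behind any value here, and no difference was tested against the spread between replicates. A fold change is the ratio of 2 such values after 1 was added to each, and its log2 is called the log2 fold change. "Raised" and "lowered" mean a change of at least 2-fold and nothing more. Genes and transcripts entered a comparison when at least 1 group of the cell type reached 10. The total of a column was between 10207960 and 11499748, and the tag total of single libraries was not in the table.

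The labelled cell types were checked against lists of defining markers, of which 2 to 4 genes per list were present. Tpsb2, a mast cell tryptase, was at 187854 in untreated mast cells and at 0 in untreated neutrophils and sDCs. Epx, eosinophil peroxidase, was at 185338 in untreated eosinophils and at 19129 in untreated neutrophils. Mpo, a peroxidase of neutrophil granules, was at 22826 in untreated neutrophils and 4890 in untreated sDCs. Among untreated cell types the neutrophil genes Elane (13402) and Cxcr2 (52728) were also highest in neutrophils. Ly6g, of the same list, was at 161.5 in untreated neutrophils and 188.5 in untreated eosinophils. Itgax, which encodes CD11c and defines dendritic cells, was lower in untreated sDCs (4076) than in untreated macrophages (13861). Xcr1 and Clec9a, the other dendritic cell genes present, were highest in sDCs among untreated cell types, at 189.5 and 243.5, against 31 and 34 in macrophages. Kit, a mast cell and progenitor receptor, was at 8800 in untreated sDCs. Cd79b, a chain of the B cell receptor complex, ranged from 1155 to 2144 in the neutrophil groups, from 398 to 861 in the sDC groups and up to 101 elsewhere. In bulk RNA, fewer cells of a type and less RNA per cell cannot be told apart.

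Sequences just upstream of 4 transcript starts are shown because of 2 patterns described below. These are the response of Irf1 against that of Irf2, which reached 2-fold in no comparison, and the estimated shift between Irf5 transcripts with different starts. The sequences are 250 bases each, read from the mouse genome build NCBIM37 (mm9), the build of the table's transcripts, and end at the base before the start. All 4 are on the plus strand. Capitals mark matches on either strand to a gamma-activated site (GAS, TTCNNNGAA, bound by STAT dimers), an interferon-stimulated response element (ISRE, a pair of GAAA repeats with any 2 bases between them, bound by IRFs) or the NF-κB consensus. No marked match overlapped another.

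The Irf1-001 start, chr11:53583266-53583515, and the Irf2-201 start, chr8:47824849-47825098, read as follows.

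Irf1-001: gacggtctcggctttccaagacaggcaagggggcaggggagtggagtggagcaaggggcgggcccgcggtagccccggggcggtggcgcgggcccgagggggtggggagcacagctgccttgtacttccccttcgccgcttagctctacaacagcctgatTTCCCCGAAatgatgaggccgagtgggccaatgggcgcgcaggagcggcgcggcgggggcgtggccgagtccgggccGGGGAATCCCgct

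Irf2-201: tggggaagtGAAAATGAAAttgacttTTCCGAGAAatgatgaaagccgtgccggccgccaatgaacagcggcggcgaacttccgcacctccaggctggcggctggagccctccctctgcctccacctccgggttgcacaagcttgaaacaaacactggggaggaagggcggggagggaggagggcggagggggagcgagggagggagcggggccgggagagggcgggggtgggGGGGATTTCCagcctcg

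The Irf1-001 window held a GAS, TTCCCCGAA, at 90 to 82 bases before the start and an NF-κB match, GGGGAATCCC, at 13 to 4 bases before it. The Irf2-201 window held an ISRE, GAAAATGAAA, at 241 to 232 bases, a GAS, TTCCGAGAA, at 224 to 216 bases and an NF-κB match, GGGGATTTCC, at 17 to 8 bases. Among the windows of the same length before 45955 starts of protein-coding transcripts, 6.52% held a GAS, 3.21% an ISRE and 7.91% an NF-κB match. Both genes therefore had letters for STAT and NF-κB binding near the start, although their responses differed, and a match is a description of sequence only.

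The Irf5-001 start, chr6:29476375-29476624, and the Irf5-003 start, chr6:29479032-29479281, were 2657 bases apart and read as follows.

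Irf5-001: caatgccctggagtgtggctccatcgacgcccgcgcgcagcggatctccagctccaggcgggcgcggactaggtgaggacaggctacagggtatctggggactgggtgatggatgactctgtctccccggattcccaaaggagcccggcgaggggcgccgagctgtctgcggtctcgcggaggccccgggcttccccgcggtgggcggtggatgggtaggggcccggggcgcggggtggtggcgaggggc

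Irf5-003: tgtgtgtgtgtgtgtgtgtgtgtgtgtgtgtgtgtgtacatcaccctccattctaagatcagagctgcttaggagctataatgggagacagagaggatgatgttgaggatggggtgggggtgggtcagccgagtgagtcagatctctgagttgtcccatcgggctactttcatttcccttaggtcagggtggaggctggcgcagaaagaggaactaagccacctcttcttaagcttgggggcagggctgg

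Neither window held any of the 3 motifs. They differed in base composition: the ratio of observed to expected CpG was 0.804 before Irf5-001 and 0.194 before Irf5-003, against a median of 0.522 over all coding starts. The ratio was 0.823 before Irf1-001, 0.693 before Irf2-201 and 0.766 before Irf3-001.

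In untreated cells Irf1 and Irf5 differed widely between cell types, and Irf2 and Irf3 did not. Irf1 lies at chr11:53583516-53591876 of NCBIM37. Its sum was 9982 in sDCs, 1577 in neutrophils, 1064 in eosinophils, 993 in macrophages and 519 in mast cells. The sDC value stood 6.33-fold above the next, the mast cell value 1.91-fold below the one above it, and eosinophils and macrophages differed by 1.07-fold. The span from highest to lowest was 19.2-fold, and a span at least as wide was seen for 27.6% of 6470 genes.

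Irf5, at chr6:29476625-29491869, was also highest in sDCs and lowest in mast cells. Its sum was 8475 in sDCs, 4646 in macrophages, 3482 in neutrophils, 1178 in eosinophils and 541.5 in mast cells, a span of 15.7-fold that 29.7% of genes reached. The professional antigen-presenting and phagocytic cells were thus the highest and the cells grown from bone marrow the lowest, with a 2.96-fold step between neutrophils and eosinophils.

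Irf2, at chr8:47825099-47932812, was at 2170 in sDCs, 2161 in macrophages, 2074 in neutrophils, 1547 in eosinophils and 1230 in mast cells. Irf3, at chr7:52253018-52258218, was at 1710 in sDCs, 1650 in mast cells, 1508 in eosinophils, 1324 in neutrophils and 1013 in macrophages. The spans were 1.76-fold and 1.69-fold, narrower than those of most genes: 79.4% of genes differed at least 2-fold between their highest and lowest cell type, and 86.4% and 88.9% of genes had a span at least as wide as Irf2 and Irf3. The sDC and macrophage values of Irf2 differed by 1.00-fold, so their order carries no information. On coding transcripts alone the highest Irf3 cell type was eosinophils in place of sDCs (span 1.55-fold), and on the leading, retained-intron transcript the span was 2.11-fold.

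To compare the genes with each other, each transcript was divided by its length and the transcripts were added. Per kilobase, Irf1 (4791) and Irf5 (3948) were the highest of the 4 in untreated sDCs, where Irf3 was at 1274 and Irf2 at 874. In untreated mast cells Irf1 and Irf5 were instead the lowest, with Irf3 at 1186, Irf2 at 495, Irf1 at 258 and Irf5 at 245. Untreated macrophages had Irf5 first at 2225, and Irf2, Irf3 and Irf1 between 600 and 870. By annotation, coding transcripts held only 25.1% of the Irf3 level per kilobase in untreated sDCs, 26.5% in mast cells and 32.6% in macrophages. The place of Irf3 above Irf2 in sDCs and mast cells therefore does not hold for coding transcripts alone.

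**Figure D1:**
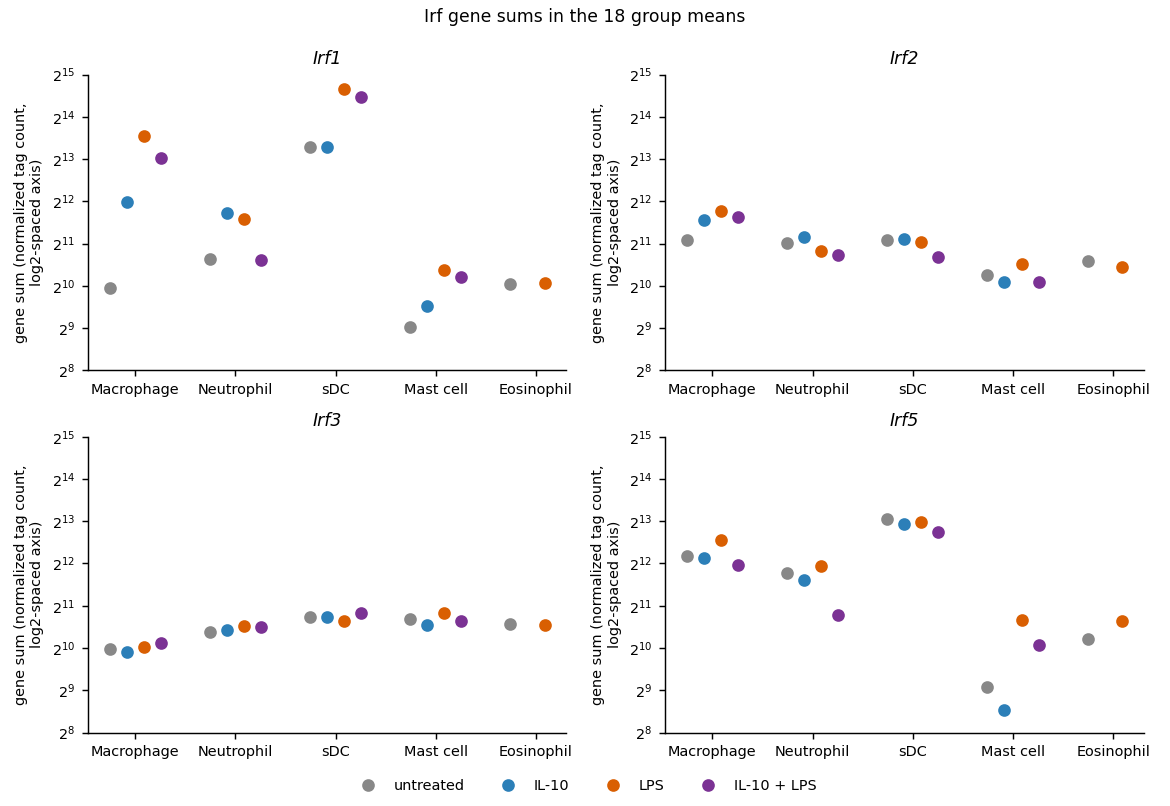
Gene sums of Irf1, Irf2, Irf3 and Irf5 in normalized tag counts on log2-spaced axes, by cell type, with 1 point for each of the 18 group means coloured by treatment; eosinophils were untreated or given LPS, and no error bars exist for these means. Irf1 ranges from 519 in untreated mast cells to 25904 in sDCs given LPS, whereas all Irf3 points lie between 953 and 1815.

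The LPS comparison asked how the factors themselves changed when Toll-like receptor 4 was engaged. Irf1 was raised in 3 of the 5 cell types, Irf5 in mast cells alone, and Irf2 and Irf3 in none, and no member was lowered. The share of all genes raised was 12.7% in macrophages, 9.04% in sDCs, 8.71% in neutrophils, 4.76% in mast cells and 2.16% in eosinophils. The shares lowered were 14.8%, 11.5%, 7.88%, 5.46% and 0.702% in that order.

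In macrophages Irf1 stood at 993 untreated, 4060 with IL-10, 11860 with LPS and 8377 with both. LPS raised it 11.9-fold (log2 fold change 3.58), which ranked 119 among the rises of 6064 genes. All 3 treated groups were above the untreated group, and the LPS group was the highest.

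In sDCs Irf1 stood at 9982 untreated, 9918 with IL-10, 25904 with LPS and 22529 with both. LPS raised it 2.59-fold, rank 375 of 6050 genes, from a starting level already near that of LPS-treated macrophages. In mast cells the values were 519 untreated, 742 with IL-10, 1318 with LPS and 1184 with both. The 2.54-fold rise with LPS ranked 181 of 5734 genes.

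In neutrophils Irf1 was at 1577 untreated, 3356 with IL-10, 3087 with LPS and 1570 with both. The change with LPS was 1.96-fold, just under the threshold, and 2.13-fold for the leading transcript Irf1-001 alone. In eosinophils the values were 1064 untreated and 1075 with LPS. Eosinophils were thus the cell type in which Irf1 moved least, by 1.01-fold.

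Irf5 was at 541.5 in untreated mast cells, 368.5 with IL-10, 1619 with LPS and 1082 with both. The 2.99-fold rise with LPS ranked 155 of 5734 genes and exceeded that of Irf1 in the same cells. The macrophage markers summed to 2268 untreated and 2211 with LPS, with Cd68 (1148 and 927) and Mrc1 (454 and 262) lower and Marco (0 and 7) near 0. Emr1 was at 667 untreated, 522 with IL-10, 1016 with LPS and 605 with both, the same direction as Irf5 in each comparison, and the B cell gene Cd79b was at 3 and 7.5. The part of other cells in the mast cell Irf5 value was not tested.

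Elsewhere Irf5 changed less with LPS, from 4646 to 5993 in macrophages, 8475 to 8083 in sDCs, 3482 to 3952 in neutrophils and 1178 to 1588 in eosinophils. None of these reached 2-fold. The eosinophil change of 1.35-fold was nevertheless reached by 5.25% of the genes in that weakly responding cell type. The summed macrophage markers in eosinophils were 14891 untreated and 23017 with LPS, nearly all of it Emr1, which eosinophils themselves express, and the part of other cells in the Irf5 value was not tested.

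Irf2 moved most in macrophages, from 2161 to 3475 (1.61-fold), and its log2 fold change in the other cell types lay between -0.19 and 0.24. Irf3 had log2 fold changes between -0.09 and 0.16 in all 5. Irf3 is the factor that carries the TRIF branch of Toll-like receptor 4 signalling, and its sum changed by at most 1.12-fold.

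The ratio of Irf1 to Irf2 per kilobase sets the activator against its antagonist. In macrophages it was 0.689 untreated, 1.96 with IL-10, 5.27 with LPS and 4.19 with both. The 4 values were 5.48, 5.42, 14.9 and 16.5 in sDCs, 1.14, 2.41, 2.34 and 1.39 in neutrophils, and 0.521, 0.837, 1.24 and 1.47 in mast cells. In eosinophils it was 0.826 untreated and 0.917 with LPS. Irf2 mRNA exceeded Irf1 mRNA in untreated macrophages, in mast cells untreated or with IL-10, and in both eosinophil groups. Irf1 exceeded Irf2 in every LPS group other than eosinophils, and in sDCs Irf1 was above Irf2 under all treatments. Without division by length the ratio fell below 1 in untreated neutrophils (0.760), neutrophils with both agents (0.921) and mast cells with LPS (0.905).

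**Figure D2:**
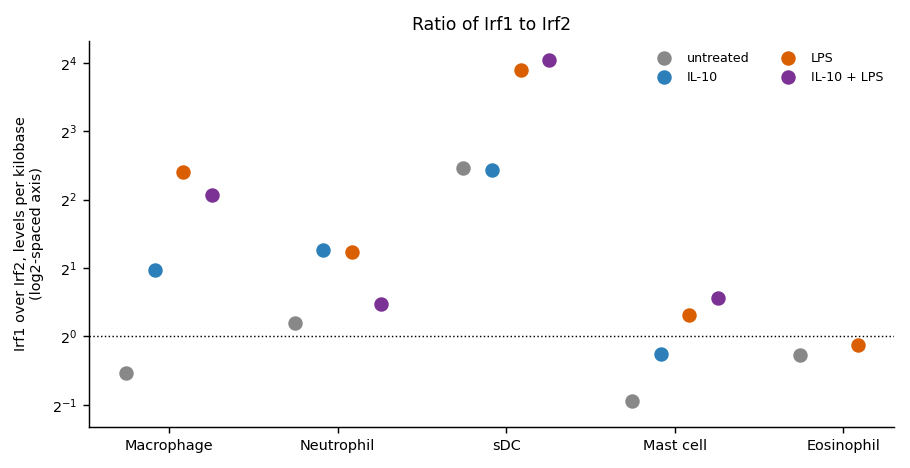
Ratio of the Irf1 level to the Irf2 level, both per kilobase of transcript, on a log2-spaced axis for the 18 group means; the dotted line marks equal levels and no error bars exist. The ratio lies below 1 in untreated macrophages, in mast cells untreated or given IL-10, and in both eosinophil groups. It reaches 16.5 in sDCs given IL-10 and LPS.

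IL-10 given alone raised Irf1 in macrophages and neutrophils and no other member in any cell type. No member was lowered. IL-10 alone raised 2.34% of all genes in macrophages, 1.6% in sDCs, 1.26% in neutrophils and 2.25% in mast cells, and lowered 2.14%, 0.826%, 0.908% and 2.79%. In macrophages the change from 993 to 4060 was 4.09-fold and ranked 38 of 6064 genes. In neutrophils the change from 1577 to 3356 was 2.13-fold and ranked 66 of 5949 genes, and on Irf1-001 alone it was 1.87-fold.

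In neutrophils IL-10 alone and LPS alone gave similar Irf1 sums, 3356 and 3087. In macrophages the IL-10 value was 34.2% of the LPS value. In sDCs Irf1 was the same within 1.01-fold with and without IL-10, and in mast cells it was 1.43-fold higher with IL-10. Irf2 with IL-10 alone was 1.40-fold higher in macrophages (2161 and 3032), Irf5 was 1.47-fold lower in mast cells, and the Irf3 log2 fold change lay between -0.15 and 0.05.

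The comparison of IL-10 plus LPS with LPS alone asked which of the factors IL-10 restrained during stimulation. Of the 4 genes in 4 cell types, 1 value was lowered, that of Irf5 in neutrophils, and none was raised. The share of all genes lowered was 4.58% in macrophages, 2.08% in sDCs, 3.87% in neutrophils and 4.66% in mast cells, and the share raised was 3.12%, 2.61%, 3.06% and 2.88%.

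In neutrophils Irf5 was at 3482 untreated, 3120 with IL-10, 3952 with LPS and 1760 with both. The last value was 2.25-fold below LPS alone, rank 172 among the falls of 5949 genes, and lay below the untreated value as well. Irf1 in the same cells was 1.97-fold lower with both agents than with LPS, and at 1570 it was back at the untreated 1577. The summed macrophage markers of the neutrophil groups were also lower with both agents than with LPS, but above the untreated sum. They were at 7589 untreated, 8398 with IL-10, 18173 with LPS and 10173 with both. Emr1 (14668 with LPS and 5158 with both) and Marco (241 and 14.5) were lower with both agents, whereas Cd68 (3140 and 4387.5) and Mrc1 (124.5 and 613) were higher. The B cell gene Cd79b was at 1195 and 1155. The part of other cells in the Irf5 and Irf1 values was not tested.

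In neutrophils, macrophages and mast cells Irf1 was thus higher with IL-10 alone, and lower when IL-10 preceded LPS than with LPS alone. Of these, the mast cell changes were the smallest, 1.43-fold (519 and 741.5) and 1.11-fold (1317.5 and 1183.5). Among neutrophils that had IL-10, the addition of LPS lowered Irf1 2.14-fold, from 3356 to 1570. The same addition raised Irf1 2.06-fold in macrophages (4060 to 8377) and 2.27-fold in sDCs (9918 to 22529). On the leading transcript alone the neutrophil and macrophage changes (log2 -0.91 and 0.90) did not reach 2-fold. The addition changed Irf1 1.60-fold in mast cells, where Irf5 was raised 2.93-fold (368.5 to 1082). No other member was called. Among all genes, LPS after IL-10 raised 10.1% in macrophages, 7.69% in sDCs, 6.12% in neutrophils and 3.75% in mast cells, and lowered 12.6%, 9.32%, 5.68% and 5.01%. These comparisons share groups with those above.

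Expressed as the share of the LPS rise that was still present with IL-10, Irf1 kept 68.0% in macrophages, 78.8% in sDCs and 83.2% in mast cells. In neutrophils the sum with both agents was 7 below the untreated sum, so none of the rise was left. The Irf5 rise of mast cells was kept to 50.2%. These shares include what IL-10 added by itself: counted from the IL-10 group, LPS added 39.7% of its increment without IL-10 in macrophages, 79.2% in sDCs and 55.4% in mast cells for Irf1, and 66.2% for Irf5 in mast cells. Irf5 in macrophages was 1.49-fold lower with IL-10 plus LPS than with LPS (5993 and 4024), in sDCs 1.17-fold lower (8083 and 6910) and in mast cells lower by a log2 fold change of -0.58 (1619 and 1082). All 4 cell types therefore had less Irf5 with IL-10 during LPS, by different amounts, and the differences between cell types were not tested.

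Irf2 during LPS was lower with IL-10 in sDCs (2102 and 1640) and in mast cells (1455 and 1099), by 1.28-fold and 1.32-fold. Irf3 during LPS differed by at most 1.14-fold with IL-10, with 1039 and 1113 in macrophages, 1606 and 1815 in sDCs, 1478 and 1455 in neutrophils, and 1805 and 1586 in mast cells. None of these reached 2-fold.

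**Figure D3:**
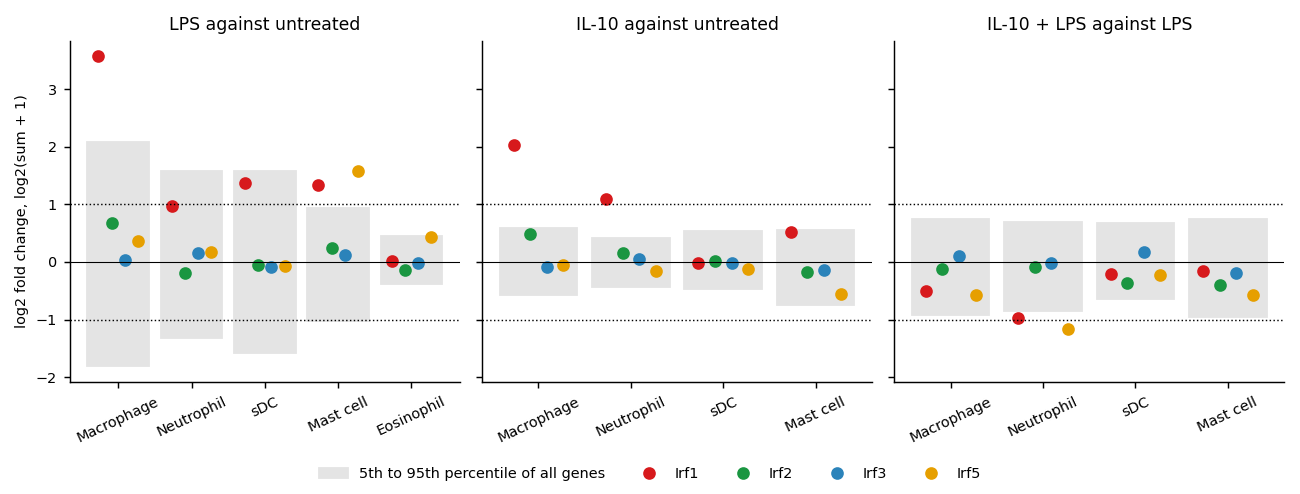
Log2 fold changes of the 4 gene sums in 3 comparisons within each cell type, with the grey boxes spanning the 5th to the 95th percentile of all genes in that comparison and dotted lines at 2-fold; each point is a ratio of 2 group means without error. Irf1 lies above the grey box with LPS in macrophages (3.58) and mast cells (1.34) and with IL-10 in macrophages (2.03) and neutrophils (1.09), Irf5 lies above it with LPS in mast cells (1.58), and in neutrophils Irf5 (-1.17) and Irf1 (-0.97) lie below it with IL-10 plus LPS.

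The transcripts of a gene were then examined one against another. Their values are estimates in which tags shared by several transcripts were divided between them, and Irf1-002, Irf1-010, Irf1-201, Irf3-005 and Irf5-006 have no exonic base of their own among the members, so that their values rest on splice junctions, ends and the estimation. The table held 19 of 28 annotated transcripts of the 4 genes. Antisense gene exons overlapped Irf1 (Gm17334, up to 100 bases of 1 exon), Irf3 (Bcl2l12, 88 bases) and Irf5 (Tnpo3, 251 bases), and tags there cannot be assigned without strand.

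With LPS, 9 of the 18 member transcripts that reached 10 in a macrophage group were raised, 6 of 18 for sDCs, 4 of 17 for neutrophils, 7 of 16 for mast cells, and 2 of 13 for eosinophils. The shares for all transcripts were 19.7%, 15.1%, 14.7%, 9.54% and 5.63% in that order. In neutrophils and in mast cells 1 member transcript each was lowered (Irf3-005 from 16 to 0 and Irf1-002 from 8 to 0), and 0 elsewhere, against 20.9%, 14.9%, 13.7%, 8.56% and 5.11% of all transcripts. In macrophages all 7 Irf1 transcripts were raised, and the other 2 were Irf5-003 and Irf5-004. A transcript of low value crosses 2-fold easily, and Irf1-003, Irf1-007 and Irf1-008 started at 6.5, 3 and 1 in these cells. Some raised transcripts passed the minimum of 10 only through groups given LPS, so the minimum favoured their rise. They were Irf1-007 and Irf1-008 in macrophages, Irf1-008 in sDCs (6.5 and 74.5), and Irf1-002 (3 and 16) and Irf5-006 (8 and 24.5) in neutrophils. The others were Irf1-003 (1.5 and 11), Irf1-010 (3 and 108) and Irf5-004 (0.5 and 12) in mast cells, and Irf1-201 in eosinophils (0 and 10).

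IL-10 alone raised 5 member transcripts in macrophages, 1 in sDCs, 3 in neutrophils and 3 in mast cells, where 9.89%, 7.5%, 6.66% and 6.43% of all transcripts were raised. All of these but Irf5-004 in mast cells were transcripts of Irf1. It lowered 1, 2, 1 and 3 (background 9.35%, 6.58%, 5.38% and 6.71%). Some of these calls compare values that are both under 10, and the transcript passed the minimum only through a group given LPS. They are Irf1-008 in macrophages (1 and 5), and in mast cells Irf1-003 (1.5 and 4.5), Irf5-004 (0.5 and 5) and the lowered Irf1-010 (3 and 0). IL-10 during LPS lowered 5, 2, 5 and 3 (13.1%, 7.64%, 9.79% and 8.41%) and raised 1, 0, 1 and 1 (13.3%, 7.7%, 10.2% and 7.23%). Of those lowered, Irf1-002 (16 and 0) and Irf5-006 (24.5 and 7.5) in neutrophils passed the minimum only through the group given LPS alone. So did Irf5-004 in mast cells (12 and 3.5). All 6 member transcripts raised by LPS in sDCs were those of Irf1, as were 7 of 9 in macrophages and 4 of 7 in mast cells. In neutrophils 2 of 4 and in eosinophils 1 of 2 were.

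Irf1-001 (ENSMUST00000108920), the full coding form with 10 exons, made up 70.0% to 98.0% of the Irf1 sum over the 18 groups. The next was Irf1-010, annotated as coding with 7 exons and a truncated 3′ end. It was at 146.5, 489, 1934 and 1587 in untreated, IL-10, LPS and combined macrophages, and at 236, 640, 279 and 252 in neutrophils. In sDCs, where Irf1 was the highest, it was listed at 0, 0, 0 and 1, and in eosinophils at 0 in both groups. In mast cells it was at 3, 0, 108 and 84. Its share of the gene sum therefore ran from 9.04% to 19.1% in macrophages and neutrophils, and was at most 8.20% in mast cells and 0.00444% in sDCs.

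Irf1-201, a shorter coding form, was at 38, 238, 684 and 506 in macrophages, 69, 303, 87.5 and 52.5 in neutrophils, 17, 36, 42 and 53 in mast cells, and between 10 and 52.5 in sDCs. Its share was 2.83% to 9.03% in the first 3 of these cell types and at most 0.459% in sDCs. In neutrophils the IL-10 group stood out, since Irf1-010 and Irf1-201 rose 2.70-fold and 4.34-fold while Irf1-001 went from 1256 to 2351. The leading form accordingly had its lowest share of all groups there, 70.0%.

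Irf1-002 begins 481 bases downstream of Irf1-001 with an alternative opening exon. In sDCs it was at 108.5 untreated, 107 with IL-10, 857.5 with LPS and 189.5 with both. LPS raised it 7.84-fold and IL-10 during LPS lowered it 4.51-fold, whereas Irf1-001 in the same groups was at 9736, 9626, 24405 and 21937. Irf1-002 was the Irf1 transcript of sDCs with the largest fall under IL-10, but it held only 3.31% of the gene sum at its height. In the other cell types it did not exceed 48.5. With Irf1-201 it was 1 of the 2 member transcripts of sDCs that IL-10 lowered during LPS.

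The estimated transcript make-up of Irf5 changed in mast cells. Irf5-001, from the upstream start, was at 245 untreated, 219 with IL-10, 1415 with LPS and 1008 with both. Irf5-003, from the start 2657 bases downstream, was at 296, 143.5, 189.5 and 66. Its share of the gene sum went from 54.7% untreated to 38.9% with IL-10, 11.7% with LPS and 6.10% with both, while Irf5-001 went from 45.2% to 87.4% with LPS. By these estimates the LPS rise of Irf5 in mast cells was a rise of Irf5-001, the form with the upstream, CpG-rich start (5.76-fold). The downstream form was estimated lower in all 3 treated groups. Only 150 bases of Irf5-001 and 202 of Irf5-003 lie outside the other Irf5 transcripts. The division therefore rests on the tags of their opening exons, and start sites were not measured.

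Irf5-003 was the leading form in untreated mast cells and in no other group. It held 3.36% to 5.80% of the sum in sDCs, 31.5% in untreated eosinophils and 23.0% in eosinophils with LPS. In macrophages it was at 677 untreated, 801 with IL-10, 1462 with LPS and 780 with both, which was a rise of 2.16-fold with LPS where Irf5-001 (3890 and 4347) changed 1.12-fold. The downstream form thus went up with LPS in macrophages and was lower with LPS in mast cells. In neutrophils both forms were lower with IL-10 plus LPS than with LPS, 2945 and 1255 for Irf5-001 and 877 and 470.5 for Irf5-003.

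**Figure D4:**
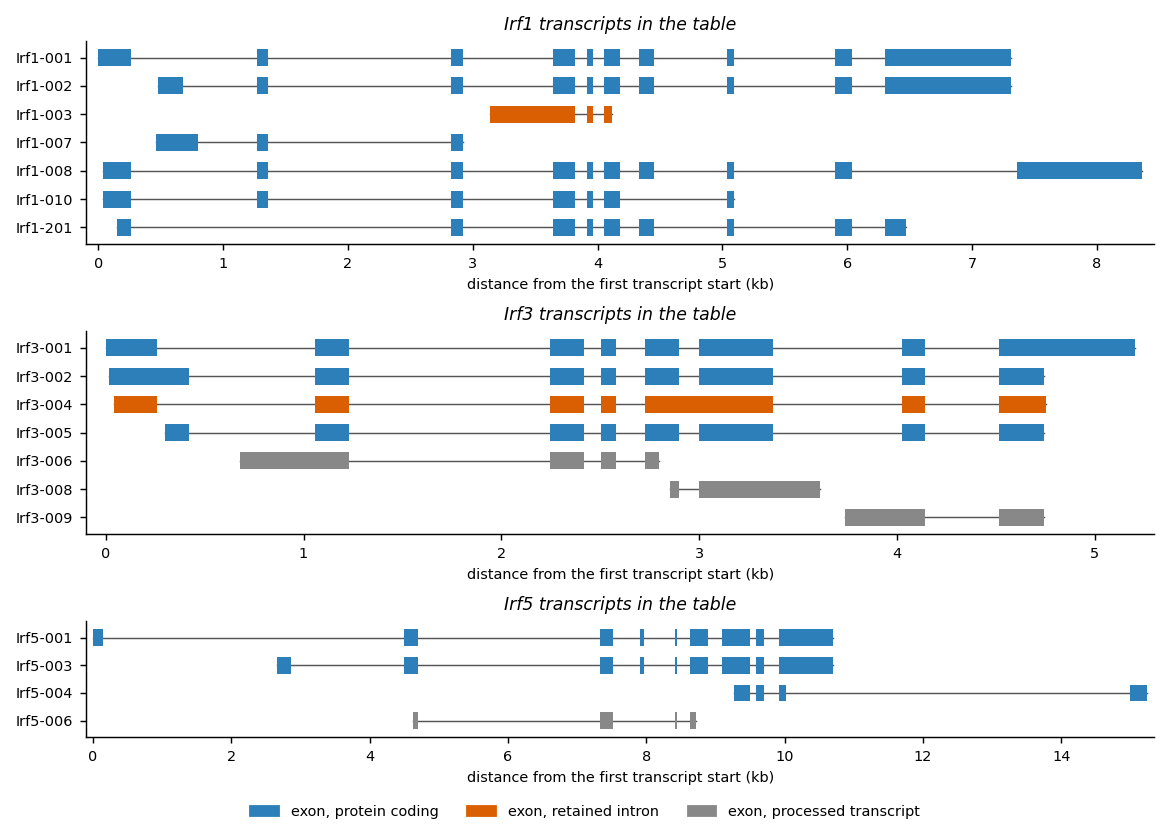
Exon maps of the Irf1, Irf3 and Irf5 transcripts in the table, drawn to scale in kb from the first transcript start of each gene, with boxes for exons coloured by annotated type and lines for introns; Irf2 has 1 transcript and is not drawn. Irf5-003 starts 2657 bases after Irf5-001 and shares its other exons, and Irf3-004 joins 2 exons of Irf3-001 through a kept intron.

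Irf3 differed from the other members in that its leading transcript does not code for protein by annotation. Irf3-004, which retains intron 5 of the coding form, was between 328 and 911 and made up 31.6% to 55.0% of the Irf3 sum. The coding forms Irf3-001, Irf3-002 and Irf3-005 together made up 28.7% to 48.7%, against 98.5% to 99.8% for Irf1 and 98.8% or more for Irf5. Only 98 bases of Irf3-004 lie outside the other Irf3 transcripts, so the division rests on few tags.

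The coding forms of Irf3 did not keep a steady proportion among themselves. In macrophages Irf3-001 was at 97 untreated, 48 with IL-10, 193.5 with LPS and 28 with both, while Irf3-002 was at 152, 170, 152.5 and 347. With IL-10 during LPS the former was thus lowered and the latter raised, and the sum of the gene differed by 1.07-fold. Irf3-005 was between 97 and 243 in macrophages and was listed at 0 in 2 neutrophil groups and in both eosinophil groups. Irf3-001 and Irf3-002 share most of their exons, and the same tags could be divided differently between them.

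**Figure D5:**
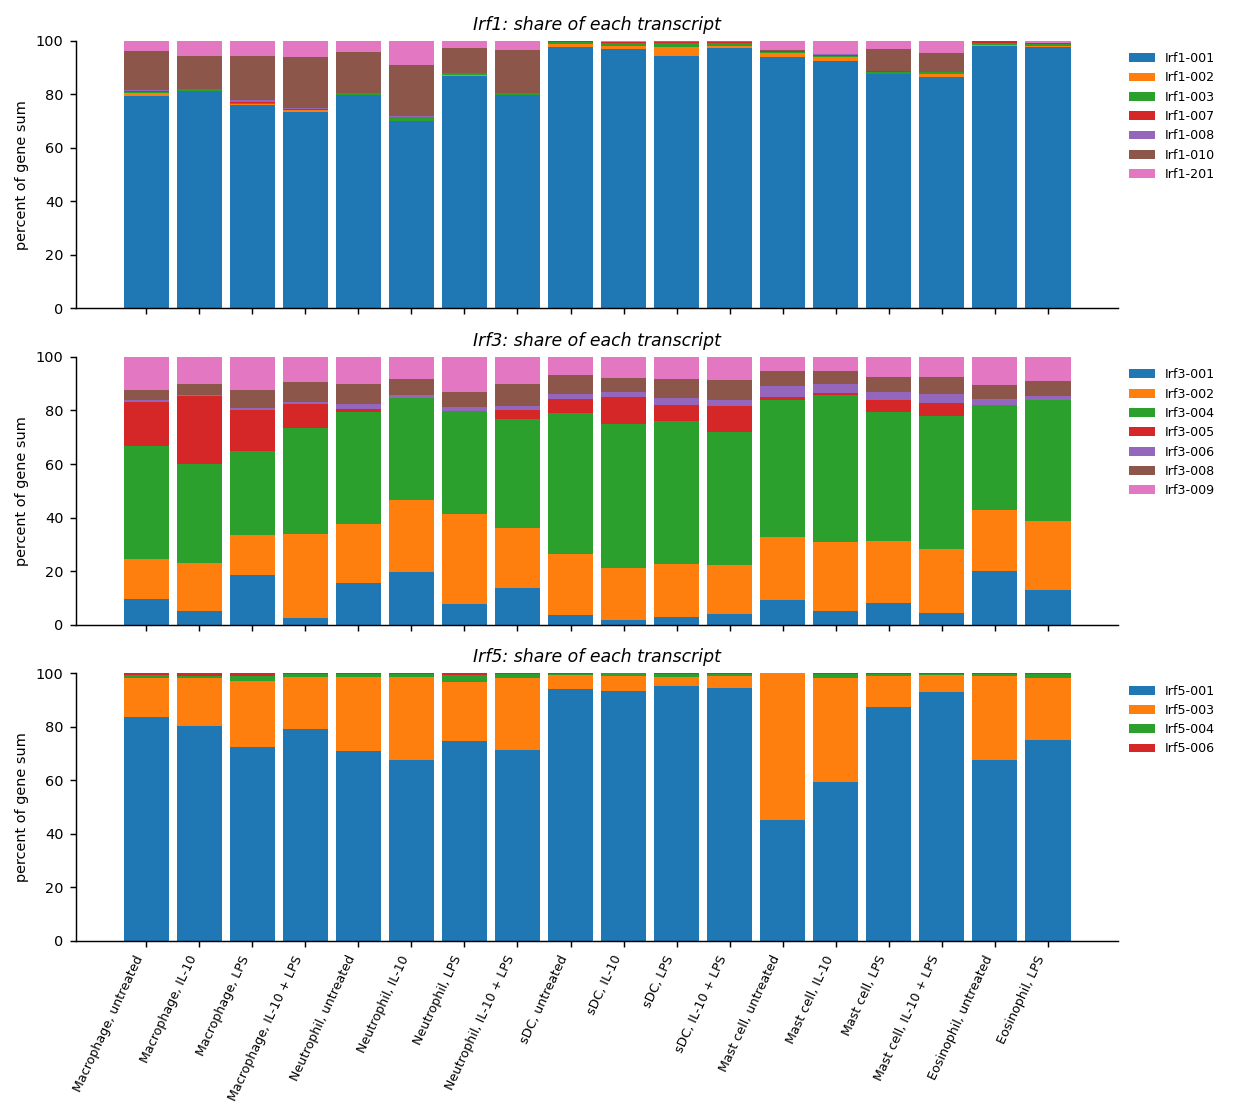
Share of each transcript in the Irf1, Irf3 and Irf5 gene sums, in percent, for the 18 group means as stacked bars. Irf1-010 is visible in macrophages, neutrophils and LPS-treated mast cells, and Irf5-003 falls from 54.7% in untreated mast cells to 11.7% with LPS.

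The genes whose pattern over the 18 groups was most like that of each member were listed by Pearson's r of log2 sums over 6247 other genes, as a description in which the points share cell types and normalization. For Irf1 these were Tapbpl (r = 0.97), a relative of the peptide-loading factor tapasin, Mycl1 (0.97) and Peli1 (0.95), a ubiquitin ligase of Toll-like receptor signalling. After each gene was centred within cell types, so that treatment alone counted, Gbp7 (0.92), an interferon-inducible GTPase, Tapbpl (0.92) and 5133401N09Rik (0.92) led. For Irf5 the nearest were Rnd3 (0.93), Ly75 (0.92), the dendritic cell receptor DEC-205, and Med11 (0.92), and after centring Tmcc3 (0.89), Slco4a1 (0.86) and Ppia (0.83). For Irf2 they were Cxadr (0.92), Rbm47 (0.91) and Aldh1b1 (0.91), and after centring Bid (0.85), Kit (0.83) and Card10 (0.79). For Irf3 they were Srebf2 (0.97), Txlng (0.95) and Safb2 (0.95), and after centring Grm6 (0.84), Snf8 (0.80) and Nat2 (0.78). Among the members, Irf1 and Irf5 had r = 0.84 over the groups and 0.33 after centring.

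The pathway around these factors was described by lists of which only part was in the table. Of receptors, adaptors and kinases upstream, 11 of 23 listed genes were present, and LPS raised 5 of them in macrophages, 4 in sDCs, 5 in neutrophils, 1 of 10 tested in mast cells, and in eosinophils 2 of 10, where 12.7%, 9.04%, 8.71%, 4.76% and 2.16% of all genes were raised. LPS lowered 1, in sDCs, where 11.5% of all genes were lowered. This was Lbp, the LPS-binding protein, at 104 untreated and 24 with LPS, named after its values were seen. Ikbke, which encodes IKK-epsilon, a relative of the IRF3 kinase TBK1, was at 2365 untreated and 8119 with LPS in macrophages, 395 and 1666 in sDCs, 1285 and 20309 in neutrophils, 658 and 1257 in mast cells, and 583 and 1967 in eosinophils. Ikbke was thus raised in 4 of 5 cell types, eosinophils included, where no member was. Tlr3, Tlr7 and Tlr9 are receptors for nucleic acids in endosomes, and Tlr9 went from 294 to 1350 with LPS in neutrophils and 363 with both agents, while in sDCs it was at 2330 untreated and 1418 with LPS. Tlr9 was also raised in eosinophils, from 11 untreated to 126.5 with LPS. Tlr3 was raised from 264 to 1864 in macrophages, 8 to 26 in neutrophils and 26 to 53 in sDCs. Tlr7 was raised from 2408 to 10691 in macrophages, 245 to 505 in neutrophils, 360 to 793.5 in sDCs and 20.5 to 49.5 in mast cells. Of IRF cofactors 3 of 8 were present, and 1 was raised by LPS in each cell type other than eosinophils.

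Of interferon receptor, JAK and STAT genes, 8 of 18 were present, with 3 raised by LPS in macrophages, 3 in sDCs, 4 in neutrophils, 4 in mast cells and 1 in eosinophils. The shares of all genes raised were 12.7%, 9.04%, 8.71%, 4.76% and 2.16% in that order. LPS lowered 1 of the 8 in macrophages and 2 in sDCs, where 14.8% and 11.5% of all genes were lowered, so the macrophage count is near that share. Stat2, a carrier of the type I interferon signal, was raised by LPS in all cell types other than eosinophils, from 1349 to 9887 in macrophages, and IL-10 alone raised it there to 2770 (2.05-fold). Usp18, which damps interferon receptor signalling, was raised by LPS in all 5 cell types, from 22.5 to 5872 in neutrophils and from 37.5 to 219.5 in eosinophils. Ifngr1, a chain of the interferon-gamma receptor, was lowered by LPS in macrophages (4007 and 1685) and sDCs (4093 and 945).

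Of listed IRF and interferon target genes, 25 of 40 were present. LPS raised 24 of 25 in macrophages, 23 of 25 in sDCs, 21 of 25 in neutrophils, 19 of 24 in mast cells, and in eosinophils 12 of 21. The list had a median log2 fold change of 4.93, 4.38, 3.69, 2.73 and 1.18 in these cell types, against -0.15, -0.14, -0.03, -0.08 and -0.02 for all genes tested. Some targets reached the minimum of 10 only in groups given LPS, so the minimum favoured their rise in these counts and medians. In eosinophils they were Ifit1 (3 and 59), Ifit3 (0.5 and 17.5), Il12b (0.5 and 16), Oas2 (2 and 55), Oasl1 (2.5 and 72) and Xaf1 (8.5 and 37). In mast cells they were Ifit1, Ifit3, Nos2, Il12b and Il27. In eosinophils the Irf1, Irf2 and Irf3 sums moved by at most 1.10-fold with LPS and Irf5 by 1.35-fold beside these targets. The shares of all genes raised, given above, were between 2.16% in eosinophils and 12.7% in macrophages.

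IL-10 during LPS lowered 17 of 25 targets in neutrophils, 13 of 24 in mast cells, 9 of 25 in macrophages and 6 of 25 in sDCs, where 3.87%, 4.66%, 4.58% and 2.08% of all genes were lowered. It raised 1 target in each of these cell types other than mast cells, against 2.61% to 3.12% of all genes. That gene was Nos2, inducible nitric oxide synthase, named after its values were seen, at 349.5 with LPS and 2797 with both in neutrophils, 6709 and 35478 in macrophages, and 187.5 and 430 in sDCs. The medians of the list were -1.21, -1.05, -0.51 and -0.77, against 0.00, -0.03, -0.01 and 0.04 for all genes. With both agents, Irf1 and Irf5 were lowest relative to LPS alone in neutrophils. Irf1 kept most of its LPS rise in mast cells, macrophages and sDCs. Any link between the Irf1 and Irf5 levels and the counts of lowered targets was not tested. The lists were chosen with results of these data known, and these counts describe the lists only.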

How the data were processed

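The deposited table gave 1 value per Ensembl transcript for each of 18 groups. Per the labels and the study's methods, the authors mapped tags with Bowtie 0.12.9 to Ensembl transcripts of mouse build mm9, estimated transcript counts with RSEM 1.2.1, normalized them for GC content and averaged the 2 biological replicates, which came from separate mice. The deposited values are therefore treated as a score, a normalized mean and not raw counts: all are multiples of 0.5, and all 18 columns have the same highest value, 185338. Averaging removes the replicate spread and hides library depth, and GC normalization can move levels of transcripts of different composition.

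The table held 17015 complete lines and 1 broken last line, 22 lines had no gene name, and a further sample of the series without a column was not used here. Transcripts were added per gene symbol. Fold changes used log2(value + 1), a minimum of 10 in at least 1 group of the cell type, and a call at 2-fold. No test across groups was possible on 1 mean per group. Transcript types, exons and sequences came from the NCBIM37 genome and GENCODE annotation of that build, which held 98.8% of the table's transcripts. Computation used Python 3.11.15, pandas 2.3.3 and numpy 2.4.6, and the scripts were tested on simulated data.

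The genes named were the 4 members, all their transcripts, the 3 genes of nearest pattern, and the pathway genes with the largest mean LPS change in their list. The members and lists were chosen with earlier results of these data known. Alternatives were other pseudocounts, the leading or the coding transcripts alone, centring on the median gene, a 1.5-fold call, values per kilobase, and minima of 50 or none. Some listed genes are not reported here.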

Additional observations from a re-analysis of the deposited data

How the results depend on the processing

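Of 312 recalculated fold changes (52 results under 6 alternatives), 305 kept their side of the threshold, 6 crossed to a call, 1 lost its call and 0 calls reversed. The sign changed in 11 of them, all under 2-fold, with log2 values of at most 0.38 in size. For Irf1 with LPS in neutrophils (log2 fold change 0.97) the call was made on the leading transcript (1.09), after centring (1.00) and at 1.5-fold (0.97). For Irf1 with IL-10 during LPS in neutrophils (-0.97) it was made on the leading transcript (-1.09) and at 1.5-fold (-0.97), and for Irf2 with LPS in macrophages at 1.5-fold (0.69). Irf1 with IL-10 alone in neutrophils lost its call on the leading transcript (0.90). The Irf5 span between untreated cell types was 32.5-fold on the leading transcript. With a minimum of 50, the transcripts lowered by LPS numbered 1 instead of 2 over the cell types. For LPS after IL-10, recalculated after the data were seen, 92 of 96 kept their side of the threshold and 3 changed sign under 2-fold. Irf1 lost its call on the leading transcript in macrophages (0.90) and neutrophils (-0.91), and at 1.5-fold Irf5 in neutrophils (-0.83) and Irf1 in mast cells (0.67) were called. The cause was not tested.

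No paired analysis was possible because each column is a mean over the replicates and carries no replicate number, and leaving out a replicate was not possible for the same reason. Depth per library was not known, so no limit of detection is given, and transcripts with values under 10 rest on the fewest tags.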
